A study of Mus musculus with 4 samples.

Results

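The genes that set, keep and remove DNA methylation were examined in RNA-seq libraries of mouse embryonic stem cells (ESCs). The 9 genes were taken by name from the 24116 genes of the table, namely Dnmt1, Uhrf1, Dnmt3a, Dnmt3b, Dnmt3l, Tet1, Tet2, Tet3 and Tdg. All 9 were counted and all 9 were among the 14896 genes tested after a filter on low counts. G3 Terc-/- ESCs lack the RNA part of telomerase and were derived, per the methods of the study, from Terc-/- mice of the preceding generation. They were compared with wild-type (WT) ESCs of the same C57BL/6 strain, with 2 libraries for each genotype. All cells were grown on feeder cells in serum with leukemia inhibitory factor, and poly(A) RNA was sequenced. The titles carry the label G3 in both genotypes and give a single line name for each genotype, N12 for WT and F35 for G3 Terc-/-, so genotype and line cannot be told apart. The p-values measure the spread between libraries of a line, which may be technical, and not that between lines.

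Methyl groups are placed on cytosine in CpG dinucleotides. Dnmt3a and Dnmt3b add new methylation, helped by the catalytically inactive Dnmt3l, and Dnmt1 copies the pattern to the new strand after replication once Uhrf1 has brought it to hemimethylated sites. The TET dioxygenases Tet1, Tet2 and Tet3 oxidise methylcytosine, and Tdg, a DNA glycosylase, cuts out the oxidised bases for repair. In mouse ESCs these enzymes are expressed at the same time, and DNA methylation helps to hold germline genes and endogenous retroviruses silent.

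Gene counts per library ranged from 18047995 to 22520017. Terc had 7 and 2 counts in WT, and neither G3 Terc-/- library held any, a count of 0 that allows up to 3. The 2 counts of WT replicate 2 lay within that allowance, so Terc was too low here to check the labels. Levels are given as CPM (counts scaled to a common library total after normalization). Of 11 pluripotency markers none was at 0, and their summed level was 6693 and 6803 CPM in WT and 8032 and 8350 CPM in G3 Terc-/- libraries. Of these markers 8 were called higher in G3 Terc-/- ESCs and 3 lower. The lower ones were Dppa5a, Utf1 and Lin28a, at log2 fold changes of -0.79, -0.32 and -0.42. Markers of feeder fibroblasts, of which none of 15 was at 0, summed to 444 and 294 CPM in WT and to 479 and 330 CPM in G3 Terc-/- libraries, so the genotypes overlapped, replicate 1 was higher in both, and within each replicate number the G3 Terc-/- sum was the higher. Of 14 feeder markers tested, 6 were called higher in G3 Terc-/- ESCs and 1 lower, with a median log2 fold change of 0.33, and Acta2, Tagln and Col1a1 made up most of the sums. Markers of 2-cell-like cells summed to 4.3 to 5.1 CPM in WT and 43.7 to 44.0 CPM in G3 Terc-/- libraries, those of trophectoderm to 318 to 326 CPM and 199 to 200.3 CPM, and those of primitive endoderm to 32.7 to 35.6 CPM and 16.9 to 23.4 CPM. Within the trophectoderm list Krt8, Krt18, Tfap2c and Gata3 were called lower, while Eomes was called higher (8.43 and 9.07 CPM in WT, 27.5 and 26.6 CPM in G3 Terc-/- libraries). None of these 3 lists (9, 7 and 7 genes) had a marker at 0 in all libraries, and the part of these cell types in the values below was not tested. In bulk RNA, fewer cells that express a gene and less RNA per cell cannot be told apart.

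The sequences before the most upstream listed start of Dnmt3b and Dnmt3l are shown because these partners in new methylation moved in opposite directions. They are RefSeq sequences of GRCm38.p6, written 5′ to 3′ on the plus strand with each CpG in capitals. Dnmt3b lies on chromosome 2 and the 212 bases span chr2:153649199-153649410. Dnmt3l lies on chromosome 10 and the 250 bases span chr10:78042037-78042286. Both end at the last base before the annotated gene.
Dnmt3b: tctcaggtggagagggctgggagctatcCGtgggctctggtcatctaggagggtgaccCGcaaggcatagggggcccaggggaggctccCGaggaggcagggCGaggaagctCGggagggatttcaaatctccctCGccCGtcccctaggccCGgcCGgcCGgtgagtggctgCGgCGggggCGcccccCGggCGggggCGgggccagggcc
Dnmt3l: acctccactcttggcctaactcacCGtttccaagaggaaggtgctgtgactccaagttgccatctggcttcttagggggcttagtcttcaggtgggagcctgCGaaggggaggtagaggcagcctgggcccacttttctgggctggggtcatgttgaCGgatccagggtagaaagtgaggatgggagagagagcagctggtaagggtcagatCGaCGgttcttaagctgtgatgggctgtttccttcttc

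The printed stretch of Dnmt3b holds 16 CpGs and that of Dnmt3l holds 5. CpG was counted as the letters CG, which read the same on both strands, in the 250 bases before each of 32851 RefSeq starts, whose median was 6 (quartiles 2 and 16). In that window Dnmt3b had 21 CpGs, more than 83.7% of starts, and the 3 starts of Dnmt3l had 5, 4 and 3. Tet2 had 51, more than 99.9% of starts, Tdg 19, Tet3 17 and Tet1 15. The genes with several starts were mixed, with 2, 7 and 26 CpGs for Dnmt1, 38, 40 and 15 for Dnmt3a and 10 and 30 for Uhrf1. Which start was in use cannot be read from counts per gene, and methylation itself was not measured in these libraries.

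Levels of different genes were compared as CPM per kb of exon, because long genes collect more reads. In WT ESCs the order by mean was Uhrf1 at 130, Dnmt3l at 122.2, Dnmt3b at 119.9, Dnmt1 at 60.5, Tet1 at 51.5, Dnmt3a at 42.9, Tdg at 37.2, Tet2 at 13.4 and Tet3 at 0.925 CPM per kb. The WT libraries of Dnmt3l (122.4 and 122.0) and Dnmt3b (118.9 and 120.9) lay within 4 CPM per kb of each other, and every neighbouring pair in this order kept its order in both libraries. In G3 Terc-/- ESCs Dnmt3l was highest at 151.1, followed by Uhrf1 at 131.4, Dnmt1 at 57.5, Dnmt3b at 54.6, Tet1 at 45.3, Dnmt3a at 30.2, Tdg at 29.2, Tet2 at 18.5 and Tet3 at 0.995 CPM per kb. Dnmt1 (59.4 and 55.5) and Dnmt3b (53.5 and 55.8) overlapped there, and no other neighbouring pair did. With exons of all annotated transcripts as length, Dnmt3a and Tdg changed places in G3 Terc-/- ESCs, at ranks 7 and 6.

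**Figure D1:**
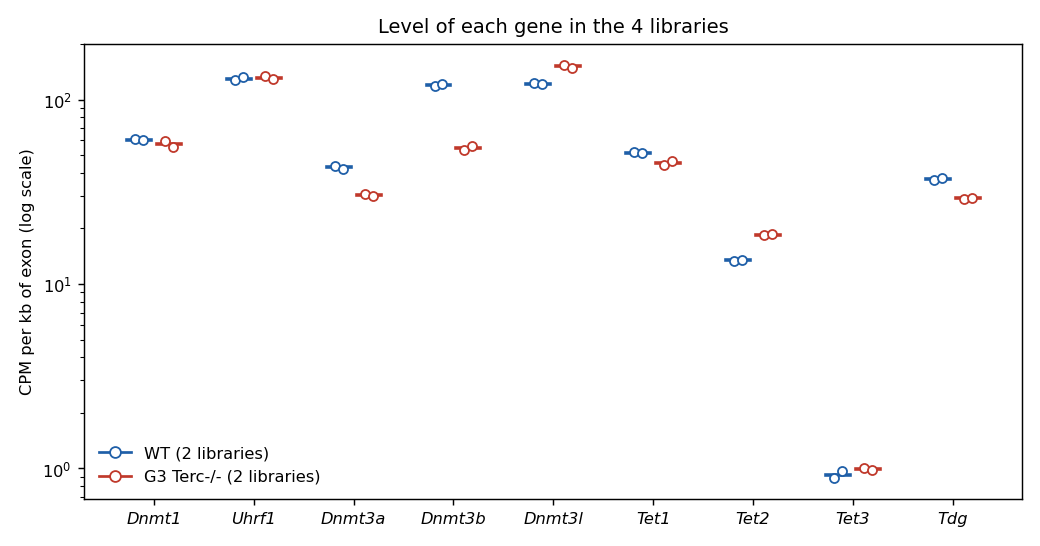
CPM per kb of exon on a log axis for the 9 genes, with a circle for each library and a bar for the mean of 2 libraries, WT in blue and G3 Terc-/- in red. Dnmt3b stood at 118.9 and 120.9 in WT and at 53.5 and 55.8 in G3 Terc-/- libraries, and Tet3 lay near 1 in all 4.

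Of the 9 genes, 4 were lower in G3 Terc-/- ESCs (Dnmt3b, Dnmt3a, Tdg and Tet1), 2 were higher (Tet2 and Dnmt3l) and 3 did not pass the test (Dnmt1, Uhrf1 and Tet3). A gene was called at an adjusted p under 0.05 from edgeR's quasi-likelihood test, adjusted over all genes tested by the Benjamini-Hochberg method. This rule called 43.5% of all 14896 genes, 21.7% higher and 21.8% lower. Among the 2333 genes of at least 100 CPM, the range in which 8 of the 9 lay, it called 19.2% higher and 33.8% lower. The median log2 fold change of the 9 genes was -0.07, against 0.01 for all genes. The cutoff of the study, a fold change over 2 at an unadjusted P under 0.05, was passed by Dnmt3b alone, and 4.73% of all genes passed it higher and 3.13% lower. The libraries of the genotypes did not overlap for 8 of the 9 genes, against 70.4% of all genes.

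**Figure D2:**
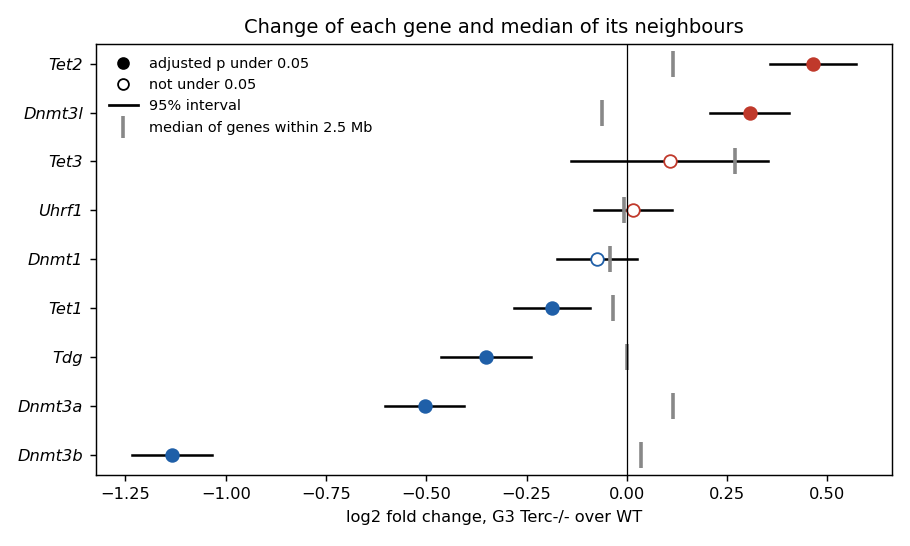
Log2 fold change of G3 Terc-/- over WT (horizontal axis) for each gene with its 95% interval, filled where the adjusted p was under 0.05, red for values above 0 and blue for values below, with a grey tick for the median of tested genes within 2.5 Mb. Dnmt3b lay at -1.13 while its neighbours had a median of 0.04, and the interval of Tet3 included both 0 and the median of its neighbours, 0.27.

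Dnmt3b was the gene with the largest change among the 9. It had 11230 and 11596 counts (514 and 523 CPM) in WT libraries and 5129 and 4405 counts (231 and 241 CPM) in G3 Terc-/- libraries. Both G3 Terc-/- libraries lay far below both WT libraries. The log2 fold change was -1.13 (SE 0.049, 95% interval -1.23 to -1.03, adjusted p = 1.59e-22 from edgeR), a level 2.20-fold lower. The size of this change exceeded that of 93.9% of all genes tested and of 99.1% of genes of at least 100 CPM.

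Dnmt3a, the other catalytic enzyme of new methylation, fell less. It had 433 and 416 CPM in WT and 303 and 296 CPM in G3 Terc-/- libraries, and the genotypes were well apart. The log2 fold change was -0.50 (SE 0.049, adjusted p = 1.46e-11 from edgeR), or 1.42-fold lower. It lies on chromosome 12 from 3801559 to 3914443 in GRCm38.

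Dnmt3l, which has no catalytic activity of its own and binds Dnmt3a and Dnmt3b, moved the other way. It had 327 and 326 CPM in WT and 413 and 394 CPM in G3 Terc-/- libraries, both above WT. The log2 fold change was 0.31 (SE 0.049, adjusted p = 1.47e-06 from edgeR), or 1.24-fold higher. Its annotated span shares 1324 bases with Aire, which had 512 and 549 counts in WT and 640 and 532 counts in G3 Terc-/- libraries, against 7139 to 9151 counts for Dnmt3l. The strand setting of the counting is not given in the sources used here, so reads of the shared stretch cannot be told apart.

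Set against each other within a library, which needs no scaling between libraries, Dnmt3b and Dnmt3a changed rank by counts. The ratio of Dnmt3b to Dnmt3a counts was 1.19 and 1.26 in WT against 0.763 and 0.816 in G3 Terc-/- libraries. The mean log2 ratio differed by -0.63 between genotypes, with SDs of 0.057 and 0.069 (n = 2 each). The two-sided exact permutation p was 0.333, the smallest that 2 libraries against 2 allow, as it was for each of the 3 ratios computed here. Per kb, Dnmt3b made up 73.1% and 74.2% of the pair in WT against 63.6% and 65.2% in G3 Terc-/- libraries. The sum of the pair was 162.6 and 162.9 CPM per kb in WT and 84.1 and 85.7 CPM per kb in G3 Terc-/- libraries. Dnmt3l stood at 0.753 and 0.749 of that sum in WT and at 1.84 and 1.72 of it in G3 Terc-/- libraries.

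The maintenance genes showed no change that passed the test. Dnmt1 had 385 and 378 CPM in WT and 374 and 350 CPM in G3 Terc-/- libraries. Its log2 fold change was -0.07 (SE 0.049, 95% interval -0.17 to 0.02, adjusted p = 0.227 from edgeR). Replicate 1 of G3 Terc-/- lay close to WT and replicate 2 lower, and without G3 Terc-/- replicate 1 the value was -0.13 with an adjusted p of 0.0149 from edgeR. Uhrf1, which recognises hemimethylated CpG and recruits Dnmt1, had 470 and 484 CPM in WT and 493 and 471 CPM in G3 Terc-/- libraries, which overlapped. Its log2 fold change was 0.02 (SE 0.048, 95% interval -0.08 to 0.11, adjusted p = 0.818 from edgeR), and its sign turned when WT replicate 1 or G3 Terc-/- replicate 1 was left out (-0.01 and -0.02). The ratio of Uhrf1 to Dnmt1 counts was 1.22 and 1.28 in WT against 1.32 and 1.35 in G3 Terc-/- libraries, a difference of 0.09 in log2 (two-sided exact permutation p = 0.333).

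Among the TET genes, Tet2 rose and Tet1 fell. Tet2 had 2678 and 2754 counts (123 and 124 CPM) in WT and 3747 and 3133 counts (169 and 172 CPM) in G3 Terc-/- libraries. The 2 groups were apart by far more than the libraries within them, with a log2 fold change of 0.46 (SE 0.053, adjusted p = 1.17e-09 from edgeR), or 1.38-fold higher. Tet1, the most abundant TET gene, had 746 and 735 CPM in WT and 634 and 668 CPM in G3 Terc-/- libraries. Its log2 fold change was -0.19 (SE 0.047, adjusted p = 0.00129 from edgeR), or 1.14-fold lower. Without WT replicate 1 the value of Tet1 was -0.18 and the adjusted p from edgeR was 0.0594.

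Tet3, which acts mainly in the zygote and in later tissues, was the rarest of the 9 genes. It had 227 and 251 counts (10.4 and 11.3 CPM) in WT and 263 and 210 counts (11.9 and 11.5 CPM) in G3 Terc-/- libraries. The CPM ranges just missed each other, and the log2 fold change of 0.11 did not pass the test (SE 0.12, 95% interval -0.14 to 0.35, adjusted p = 0.504 from edgeR). Tet3 lies on chromosome 6, in a stretch from 80 to 95 Mb where 87 of 131 other genes were called higher and 6 lower, with a median of 0.51. The bounds of this stretch were drawn after values on the chromosome had been seen. The gene stood below that median, and the upper end of its interval did not reach it. The 51 tested genes within 2.5 Mb of Tet3 had a median of 0.27, which lay inside the interval.

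Within the TET family the shares shifted while the sum stayed close. The summed level of Tet1, Tet2 and Tet3 was 66.1 and 65.6 CPM per kb in WT and 63.5 and 66.1 CPM per kb in G3 Terc-/- libraries, which overlapped. Tet2 made up 20.2% and 20.6% of the sum in WT against 28.9% and 28.2% in G3 Terc-/- libraries. Tet1 made up 78.5% and 78.0% in WT against 69.5% and 70.3% in G3 Terc-/- libraries, and Tet3 stayed between 1.34% and 1.59% in all 4. The ratio of Tet2 to Tet1 counts was 0.164 and 0.169 in WT against 0.267 and 0.257 in G3 Terc-/- libraries. The mean log2 ratio differed by 0.65, with SDs of 0.028 and 0.037 (n = 2 each, two-sided exact permutation p = 0.333).

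**Figure D3:**
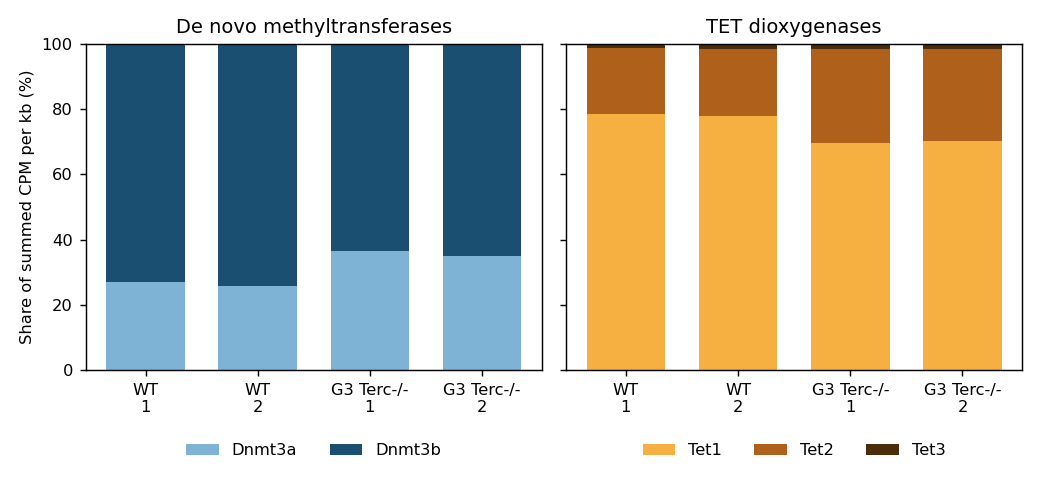
Stacked bars of the share (%) of summed CPM per kb in each of the 4 libraries, for Dnmt3a and Dnmt3b on the left and for Tet1, Tet2 and Tet3 on the right. Dnmt3a took 25.8% to 26.9% of its pair in WT and 34.8% to 36.4% in G3 Terc-/- libraries, and Tet2 took 20.2% to 20.6% and 28.2% to 28.9% of the TET sum.

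Tdg, which removes the oxidised bases that TET enzymes make, was lower. It had 2832 and 2955 counts (130 and 133 CPM) in WT and 2276 and 1887 counts (103 CPM in both) in G3 Terc-/- libraries. The G3 Terc-/- libraries differed from each other by under 1 CPM. The log2 fold change was -0.35 (SE 0.056, adjusted p = 1.33e-06 from edgeR), or 1.28-fold lower. Glt8d2, which overlaps 369 bases of Tdg, had at most 20 counts in any library.

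Neighbouring genes were read because blocks of chromosome 6 are shifted in these cells. Tested genes within 2.5 Mb had a median log2 fold change of 0.04 around Dnmt3b (78 genes), 0.12 around Dnmt3a (24 genes), -0.06 around Dnmt3l (118 genes), 0.12 around Tet2 (23 genes), -0.03 around Tet1 (39 genes) and 0.0017 around Tdg (119 genes). The 6 genes that were called differed from the median of their neighbours by -1.17 for Dnmt3b, -0.62 for Dnmt3a, 0.37 for Dnmt3l, 0.35 for Tet2, -0.15 for Tet1 and -0.35 for Tdg. The neighbours of Dnmt1 and Uhrf1 had medians of -0.04 and -0.0081.

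Genes that work with the methyltransferases were read from a list of 24, of which 23 were tested. Of these, 6 were called higher and 9 lower, or 65.2% in all against 43.5% of all genes (21.7% higher and 21.8% lower), with a median of -0.03. Many of the list lay at 100 CPM or more, where 19.2% of genes were called higher and 33.8% lower. Dppa3, which keeps Uhrf1 and Dnmt1 away from chromatin in the egg and early embryo, had 56.5 and 58.3 CPM in WT and 23.2 and 26.1 CPM in G3 Terc-/- libraries. Its log2 fold change was -1.22 (SE 0.076), although the genes around it on chromosome 6 had a median of 0.60. Prdm14, a pluripotency factor known to repress Dnmt3b and Dnmt3l, rose from 16.4 and 14.8 CPM to 35.4 and 31.6 CPM. Its log2 fold change was 1.10 (SE 0.090), beside -1.13 for Dnmt3b and 0.31 for Dnmt3l. A link between Prdm14 and these changes was not tested. Zfp57, which guards methylation at imprinted regions, rose by 0.44, and Smchd1, a chromatin protein of the inactive X chromosome, fell by 0.71 on the log2 scale. Of the partners of maintenance, Cdca7, which activates the remodeller Hells, fell by 0.31, whereas Hells itself was at 0.05 and did not pass the test. Uhrf2, a relative of Uhrf1, rose by 0.21, and Usp7, a deubiquitinase of Uhrf1 and Dnmt1, fell by 0.15 on the log2 scale. The call of Uhrf2 was lost with DESeq2 and without WT replicate 1 or 2 (adjusted p = 0.0627, 0.11 and 0.0942), and that of Usp7 without WT replicate 2 (adjusted p = 0.243 from edgeR).

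Partners of the TET enzymes and of base excision repair numbered 23, all tested, of which 5 were called higher and 8 lower (56.5%, against 43.5% of all genes), with a median of -0.11. Some of them lay at 100 CPM or more, where 19.2% of genes were called higher and 33.8% lower. Gadd45a, an adaptor linked to active demethylation, fell by 1.61 on the log2 scale, from 110.1 and 112.3 CPM to 37.0 and 35.8 CPM. It lies on chromosome 6, where the 9 tested genes around it had a median of -1.33. Its relative Gadd45g fell by 1.25, with neighbours at 0.07. Sinhcaf, a subunit of the Sin3 complex that TET1 joins, fell by 0.66, and Qser1, which works with TET1 to shield regulatory regions from methylation, fell by 0.34 on the log2 scale. With DESeq2, 3 were called higher, and 2076 of all genes were called higher against 3238 with edgeR. The number of TET partners called higher also fell when some libraries were left out, as did that over all genes.

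Of the 9 proteins that read methylated CpG, 2 were called higher and 4 lower (66.7%, against 43.5% of all genes), and their median was -0.0044. Mbd1, a repressor that binds methylated CpG, rose by 0.58, from 29.7 and 31.5 CPM to 46.8 and 44.5 CPM. Mbd3, a subunit of the NuRD complex, fell by 0.22, and Zbtb38, a zinc finger reader, fell by 0.34 on the log2 scale. The call of Mbd3 was lost without WT replicate 1 (adjusted p = 0.0702 from edgeR), and that of Zbtb38 with DESeq2, without WT replicate 2 and without G3 Terc-/- replicate 2 (adjusted p = 0.122, 0.118 and 0.075). Leaving out WT replicate 1 left 1 reader called lower, leaving out WT replicate 2 or G3 Terc-/- replicate 2 left 1 called higher, and DESeq2 called 1 in each direction.

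The methionine cycle makes the methyl donor S-adenosylmethionine. The methionine list held 18 genes, of the cycle, of folate, glycine and threonine reactions near it, and relatives of its enzymes. Of these, 16 were tested, of which 2 were called higher and 6 lower (50.0%, against 43.5% of all genes), with a median of -0.09. Many of the list lay at 100 CPM or more, where 19.2% of genes were called higher and 33.8% lower. Gldc, which feeds glycine carbon into the folate pool, fell by 0.72, from 344 and 366 CPM to 217 and 215 CPM. Mthfd2, a mitochondrial folate enzyme that lies near Tet3 among genes with a median of 0.27, fell by 0.49. Mat2a, which makes S-adenosylmethionine, fell by 0.29 on the log2 scale and lies in a part of chromosome 6 where neighbours had a median of -0.94. Tdh, which breaks down threonine in mouse ESCs, rose by 0.25. With DESeq2, 1 gene of the list was called higher, and the count also moved when some libraries were left out.

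Germline genes known as targets of silencing by promoter methylation formed a list of 26, of which 24 were tested. Not all were silent in WT ESCs, as the levels of Tex19.1 and Ddx4 below show. Of these, 9 were called higher and 2 lower, with a median of 0.17. The 45.8% called in all was near the 43.5% of all genes, of which 21.7% were higher and 21.8% lower. Dazl, an RNA-binding protein of germ cells, had 9.07 and 9.52 CPM in WT and 22.2 and 24.3 CPM in G3 Terc-/- libraries, a log2 fold change of 1.32 (SE 0.11). Syce1, a part of the synaptonemal complex, rose by 1.21 and Sohlh2, a germ cell transcription factor, by 1.08. Hormad1, a protein of meiotic chromosome axes, rose by 0.55, and Piwil2, which binds piRNAs, rose by 0.47 on the log2 scale. The most abundant genes of the list did not share a direction, since Tex19.1, which acts against retrotransposons in germ cells, fell by 0.59 (113 and 112 CPM against 76.3 and 72.4 CPM) and Ddx4, a germ cell helicase, was at 0.03 (56.4 and 54.4 CPM against 55.4 and 57.4 CPM) and did not pass the test.

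**Figure D4:**
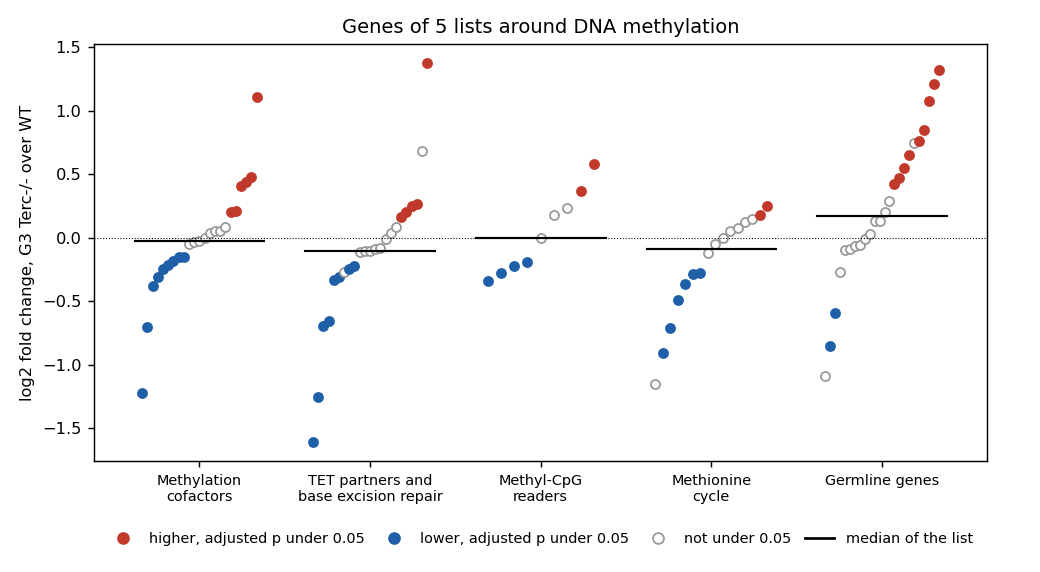
Log2 fold change of G3 Terc-/- over WT (vertical axis) for each tested gene of 5 lists, ordered by value within a list, red or blue where called higher or lower, open where not, with a black line at the median of the list. The germline list had 9 genes called higher and 2 lower and a median of 0.17, and the other 4 medians lay between -0.11 and -0.0044.

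Retrotransposon families that DNA methylation is known to help silence were read from the counts of transposable elements, which totalled 1805047 to 2104586 per library. All 5 families read had counts in WT libraries. Methylation of their copies was not measured, and a link to the methyltransferase genes was not tested. Of 5 families, 3 were called higher and none lower, while 13.2% of the 917 families tested were called higher and 11.6% lower by edgeR. The study used a separate cutoff for retrotransposons, and it asks for a larger fold change than any of the 5 had. The largest was 1.43-fold, for IAPLTR1a_Mm. L1Md_A, a young LINE1 family, had 4482 and 4879 counts in WT and 6856 and 5910 counts in G3 Terc-/- libraries. Its log2 fold change was 0.50 (SE 0.036, adjusted p = 3.95e-06 from edgeR), and 1 copy held 29.4% of its counts, without which the value was 0.58 (adjusted p = 2.62e-05 from edgeR). IAPEz-int, the internal part of intracisternal A particles, had a log2 fold change of 0.18 (SE 0.038, adjusted p = 0.00632 from edgeR). Of the IAP long terminal repeats, IAPLTR1a_Mm rose by 0.51 (SE 0.13, adjusted p = 0.0138 from edgeR), a call that was lost with DESeq2 (adjusted p = 0.0626) and without WT replicate 2 (adjusted p = 0.0707). IAPLTR2_Mm was at 0.24 and IAPLTR1_Mm at -0.15, with adjusted p of 0.135 and 0.158 from edgeR. Of the 5 families, 0 were lower at an unadjusted p under 0.05 with edgeR, and DESeq2 also called 0 lower.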

How the data were processed

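RNA-seq of 2 WT and 2 G3 Terc-/- ESC libraries was used, grouped by the titles. The authors aligned reads to mm10 with STAR, and Trim Galore and featureCounts are also named in the submitters' processing notes. They deposited raw counts per gene and per transposable element copy, not normalized. Versions, annotation and strand setting are not given in the sources used here. Names and positions came from RefSeq (GRCm38.p6, 24061 of 24116 identifiers matched) and exon lengths from GENCODE. Dnmt3c had no row, and neither did the RefSeq pseudogenes named after Dnmt3a, Dnmt3b, Dnmt3l and Tdg.

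Counts were normalized by TMM, filtered by filterByExpr and tested with edgeR 4.0.16 (quasi-likelihood, genotype only, Benjamini-Hochberg over all genes) in R 4.3.3. CPM use TMM-scaled library sizes. Element copies were summed by repeat name. Fits were tested on simulated counts. Alternatives were DESeq2 1.42.0, its size factors, no filter, a replicate block, each library left out and the cutoff of the study. For levels per kb, longer exon lengths were added after seeing the data. The text names the 9 genes, Terc, up to 4 called genes per list by smallest p, partners of maintenance and Dppa3 and Prdm14, the 4 most counted germline genes and 5 families. A gene that this rule also takes is not reported here. The genes and lists were chosen with earlier results of these data known. Replicates of a genotype differed beyond sampling noise (chi-square per gene 2.41 in WT and 3.60 in G3 Terc-/-).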

Additional observations from a re-analysis of the deposited data

How the results depend on the processing

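The log2 fold changes of Dnmt3a, Dnmt3b, Dnmt3l, Tet2 and Tdg kept their direction and their call under DESeq2, its size factors, no filter, the replicate block and each library left out, from -1.16 to -1.11 for Dnmt3b, -0.53 to -0.48 for Dnmt3a, 0.27 to 0.34 for Dnmt3l, 0.45 to 0.47 for Tet2 and -0.37 to -0.33 for Tdg. With each library left out, Dnmt1 ranged from -0.1297 to -0.02409, Uhrf1 from -0.02168 to 0.05003 (-0.00868 without WT replicate 1), Tet1 from -0.2216 to -0.1541 and IAPLTR1a_Mm from 0.4157 to 0.6067, and a lone library was then assumed to vary like the other group. Adjusted p of Tet1 ranged from 1.75e-06 to 0.0594 over its alternatives and that of IAPLTR1a_Mm from 0.00489 to 0.0707, with 0.5192 for IAPLTR1a_Mm under DESeq2. Over the same omissions Hells ranged from -0.0279 (without G3 Terc-/- replicate 2) to 0.1236 (without G3 Terc-/- replicate 1, adjusted p = 0.0181) and Ddx4 from -0.001843 to 0.04773. Uhrf2, Usp7, Mbd3 and Zbtb38 each lost their call under at least 1 alternative, with adjusted p up to 0.11, 0.243, 0.0702 and 0.122. The causes were not tested.

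Of all genes, 3238 were called higher and 3241 lower, and DESeq2 called 2076 higher and 2290 lower. At the cutoff of the study 704 genes were higher and 466 lower, with 0 and 1 of the 9 methylation genes. The same cutoff was passed by 1 and 1 of the methyltransferase partners and 1 and 2 of the TET partners. It was passed by 0 and 0 of the reader list, 0 and 0 of the methionine list and 3 and 0 of the germline list. DESeq2 called 3 TET partners higher, 1 gene of the reader list higher and 1 lower, and 1 gene of the methionine list higher. With each library left out, the counts called among the TET partners, the reader list and the methionine list moved, as did those over all genes. The 2 replicate numbers are not shown to pair the libraries, since deviations of replicate 1 correlated between genotypes at 0.06 over genes. The replicate block called 3551 genes higher and 3583 lower and 2 and 4 of the 9 genes, and it changed no call of the 9 genes, the 5 families or the other named genes. With exons of all transcripts as length, the share of Tet2 differed by 6.00 percentage points between genotypes and that of Dnmt3a by 7.92.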
